A study of Arabidopsis thaliana with 4 samples.

Results

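Stomatal lineage regulators and their patterning peptides were followed in RNA-seq of whole Arabidopsis thaliana seedlings. They were taken by name or locus from the deposited table of reads per gene: the transcription factors MUTE, FAMA (listed there as FMA), SCRM, SCRM2 and FLP, the receptor-like protein TMM, the secreted peptides EPF1, EPF2 and STOMAGEN, and the protease SDD1. These are 10 of the 26784 genes in the table, and all 10 had enough reads to be tested. All seedlings were wild type of the Col-0 accession, sampled at 2 or at 6 days post germination (dpg), with 2 libraries at each age. They grew under one regime, on half-strength Murashige and Skoog medium containing 0.5% sucrose at 22 °C with 12 h of light per day, after 2 days of cold in the dark. There was no mutant, treatment or sorted cell type. The purpose of the series is to find transcription factor genes that change in early seedling growth.

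Stomata are pores of the leaf epidermis, each bounded by a pair of guard cells. Precursor cells pass through a series of divisions and fate changes driven by basic helix-loop-helix (bHLH) transcription factors: SPEECHLESS starts the lineage, MUTE ends its asymmetric divisions and turns the cell into a guard mother cell, and FAMA stops division and directs guard cell fate. Each of these acts as a dimer with SCRM (also called ICE1) or SCRM2. Spacing is set by secreted peptides: EPF2 limits entry into the lineage, EPF1 keeps stomata apart, and STOMAGEN promotes them by competing for the same receptors, the ERECTA family together with TMM. SPEECHLESS and BASL, a polarity protein of the asymmetric division, were not analysed here.

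The 10 genes did not move together between the ages. FAMA and FLP rose. MUTE, SCRM2, TMM, EPF1, EPF2 and SDD1 fell, and SCRM and STOMAGEN did not pass the test. That is 2 higher and 6 lower by edgeR's quasi-likelihood test at a Benjamini-Hochberg adjusted p under 0.05. Over all 16160 genes tested, 28.3% were called higher and 28.4% lower, together 56.6%, so a call by itself was common in this comparison. The median log2 fold change (6 dpg relative to 2 dpg) was -0.61 for the 10 genes and 0.00 for all genes tested. In 9 of the 10 genes the libraries of the ages did not overlap, against 80.6% of all genes tested. Levels below are in CPM, read counts scaled to each library's total and composition, and means are given ± SD with n = 2 libraries. Such an SD can lie below the counting error of the reads. The labels do not state whether replicate libraries are separate plantings, and p-values therefore reflect variation among these 4 libraries alone, possibly technical. Since whole seedlings were sampled, fewer cells of a type and less RNA per cell cannot be told apart.

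**Figure D1:**
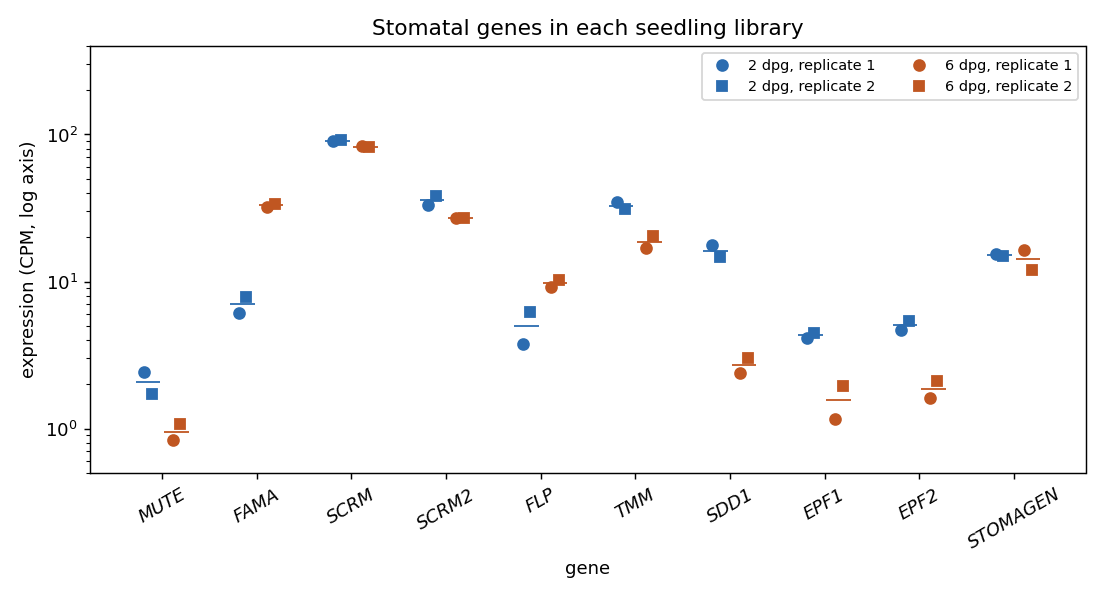
Level of each of the 10 genes in CPM in each library (points) at 2 and 6 dpg, on a log axis, with the mean of each age as a short line; colours mark the age and symbols the replicate. FAMA lies at 6.10 and 7.89 CPM at 2 dpg and at 32.2 and 33.8 CPM at 6 dpg, while the points of STOMAGEN overlap.

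The sequences upstream of FAMA and SDD1, which had the largest rise and the largest fall among the 10, and of EPF1 and EPF2, a peptide pair that both fell, are shown because bHLH proteins bind E-boxes. Each is the 250 bases before the gene start of the RefSeq annotation of TAIR10.1, on the gene's strand, with every E-box (CANNTG) in capitals. RefSeq starts match the authors' gene positions for FAMA and EPF2. For EPF1 and SDD1 they do not, as the authors' positions start these minus-strand genes at 8983612 and 1063784. Distances below are counted from RefSeq starts. The windows are chr3:8718212-8718461 (minus strand) for FAMA, chr1:1063810-1064059 (minus strand) for SDD1, chr2:8983815-8984064 (minus strand) for EPF1 and chr1:12472618-12472867 (plus strand) for EPF2.
FAMA: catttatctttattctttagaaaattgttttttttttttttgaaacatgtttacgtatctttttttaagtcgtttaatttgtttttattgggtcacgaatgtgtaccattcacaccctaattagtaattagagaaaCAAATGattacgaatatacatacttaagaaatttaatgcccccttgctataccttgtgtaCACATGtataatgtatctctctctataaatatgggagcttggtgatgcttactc
SDD1: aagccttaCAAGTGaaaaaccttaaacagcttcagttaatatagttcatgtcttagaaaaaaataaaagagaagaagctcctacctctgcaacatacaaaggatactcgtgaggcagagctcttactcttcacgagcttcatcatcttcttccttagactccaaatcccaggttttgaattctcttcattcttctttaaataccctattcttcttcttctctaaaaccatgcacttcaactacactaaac
EPF1: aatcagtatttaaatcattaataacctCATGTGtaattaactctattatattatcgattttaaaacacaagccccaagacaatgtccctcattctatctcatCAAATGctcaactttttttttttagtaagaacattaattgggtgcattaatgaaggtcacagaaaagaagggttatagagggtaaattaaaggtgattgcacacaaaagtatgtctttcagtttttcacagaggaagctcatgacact
EPF2: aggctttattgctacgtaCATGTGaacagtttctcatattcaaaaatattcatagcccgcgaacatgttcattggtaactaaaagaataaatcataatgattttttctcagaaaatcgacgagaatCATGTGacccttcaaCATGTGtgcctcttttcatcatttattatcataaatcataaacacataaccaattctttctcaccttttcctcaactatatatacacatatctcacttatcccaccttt
EPF2 held 3 E-boxes, starting 232, 124 and 109 bases before the gene start, and all 3 read CATGTG. EPF1 held 2, at 223 and 148 bases, and FAMA held 2, at 114 and 54 bases. SDD1 held 1, at 242 bases, and MUTE held 1, at 46 bases. The windows of SCRM, SCRM2, TMM, STOMAGEN and FLP held none. An E-box was thus found before 5 of the 10 genes, against 55.3% of 27443 coding genes with a window of this length. The G-box CACGTG, a form of the E-box, was in none of the 10 windows and in 6.49% of all. CATGTG on either strand, a form of the E-box that was looked for after the windows had been seen, was present before EPF1, EPF2 and FAMA, against 11.1% of all windows. TAAAG on either strand, a form of the core letters bound by Dof transcription factors, was in all 10 windows and in 58.8% of all windows. These matches describe letters only, and no binding was measured.

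Among the transcription factors, FAMA and MUTE moved in opposite directions. FAMA (AT3G24140, chromosome 3, 8715236 to 8718211, minus strand; coordinates here and for the genes that follow are those of the authors' table) was at 6.10 and 7.89 CPM at 2 dpg and at 32.2 and 33.8 CPM at 6 dpg. Both 6 dpg libraries lay far above both 2 dpg libraries. The mean went from 7.0 ± 1.26 to 33.0 ± 1.14 CPM, a 4.73-fold rise (log2 fold change 2.24, SE 0.15, 95% interval 1.90 to 2.59, adjusted p = 1.25e-05). Its log2 fold change had rank 329 from the highest of the 16160 genes tested. The counts behind it were 149 and 157 reads at 2 dpg and 773 and 660 at 6 dpg.

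MUTE (AT3G06120, chromosome 3, 1846531 to 1848230, plus strand) was at 2.42 and 1.71 CPM at 2 dpg and at 0.832 and 1.07 CPM at 6 dpg. The older seedlings were lower in both libraries, and the 2 dpg libraries differed from each other by more than the nearest libraries of the 2 ages did. The mean fell from 2.06 ± 0.501 to 0.953 ± 0.172 CPM, or 2.19-fold (log2 fold change -1.13, SE 0.33, 95% interval -1.88 to -0.38, adjusted p = 0.0169). Only 20 to 59 reads per library lie behind these levels. The call was lost with DESeq2 (adjusted p = 0.0721), without 2 dpg replicate 1 (-0.84, adjusted p = 0.151), without 6 dpg replicate 1 (-0.95, adjusted p = 0.0945) and with libraries scaled on ribosomal protein genes (-0.80, adjusted p = 0.123).

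Their dimer partners changed little. SCRM (AT3G26744, chromosome 3, 9832689 to 9835247, minus strand) was at 89.6 and 91.7 CPM at 2 dpg and at 82.9 and 81.8 CPM at 6 dpg. The ages did not overlap, but the difference was small and missed the threshold (log2 fold change -0.14, SE 0.11, 95% interval -0.39 to 0.11, adjusted p = 0.312). Scaling on ribosomal protein genes turned its sign (0.16, adjusted p = 0.588). Those ribosomal protein genes themselves had a median log2 fold change of -0.35. SCRM2 (AT1G12860, chromosome 1, 4384353 to 4386610, plus strand) was at 33.0 and 38.3 CPM at 2 dpg and at 27.1 CPM in both 6 dpg libraries, with no overlap between the ages. At 6 dpg it had 651 and 529 reads, so the small SD at that age understates counting error. The mean of SCRM2 fell 1.32-fold, from 35.7 ± 3.77 to 27.1 ± 0.0103 CPM (log2 fold change -0.40, SE 0.13, adjusted p = 0.0235). That call was lost without either 6 dpg library (-0.39, adjusted p = 0.134 without replicate 1, and -0.39, adjusted p = 0.132 without replicate 2) and with ribosomal scaling (-0.11, adjusted p = 0.730).

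FLP (MYB124, AT1G14350, chromosome 1, 4907953 to 4911168, plus strand) encodes a MYB protein that restricts the guard mother cell to a single symmetric division. It was at 3.77 and 6.23 CPM at 2 dpg and at 9.20 and 10.2 CPM at 6 dpg. The older libraries were both higher, and the younger libraries differed from each other more than the older ones did. The mean rose 1.96-fold, from 5.00 ± 1.74 to 9.72 ± 0.735 CPM (log2 fold change 0.97, SE 0.23, 95% interval 0.44 to 1.5, adjusted p = 0.00684). The neighbouring gene AT1G14360 overlaps 2.36% of the FLP locus, and reads there cannot be assigned by strand. Its close paralogue MYB88, which acts redundantly with FLP, was at 7.19 ± 2.06 and 6.17 ± 0.316 CPM and missed the threshold (log2 fold change -0.21, adjusted p = 0.429).

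Among 75 tested bHLH genes of the authors' family table, 27 were called higher and 20 lower, with a median log2 fold change of 0.10. FAMA had rank 3 and SCRM and SCRM2 had ranks 43 and 51 from the highest log2 fold change, and MUTE had rank 11 from the lowest. FLP had rank 27 from the highest of 94 tested MYB genes, of which 49 were called higher and 20 lower with a median of 0.49. FAMA thus stood near the top of its family, while FLP lay among many MYB genes that were higher at 6 dpg.

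TMM (AT1G80080, chromosome 1, 30128005 to 30129591, minus strand), the leucine-rich repeat protein that lacks a kinase domain and tunes which peptides ERECTA family receptors perceive, was at 34.6 and 31.2 CPM at 2 dpg and at 16.8 and 20.4 CPM at 6 dpg. Both older libraries were lower than both younger ones. The mean fell 1.77-fold, from 32.9 ± 2.41 to 18.6 ± 2.52 CPM (log2 fold change -0.83, SE 0.14, 95% interval -1.14 to -0.51, adjusted p = 0.00103). With ribosomal scaling the call was lost (-0.52, adjusted p = 0.0779).

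Both inhibitory peptides fell. EPF1 (AT2G20875, chromosome 2, 8983074 to 8983612, minus strand) was at 4.14 and 4.47 CPM at 2 dpg and at 1.17 and 1.94 CPM at 6 dpg. Its mean fell 2.80-fold, from 4.31 ± 0.237 to 1.55 ± 0.551 CPM (log2 fold change -1.49, SE 0.28, 95% interval -2.12 to -0.85, adjusted p = 0.00199). EPF2 (AT1G34245, chromosome 1, 12472868 to 12473754, plus strand) was at 4.71 and 5.38 CPM at 2 dpg and at 1.62 and 2.10 CPM at 6 dpg. For both peptides the ages were clearly apart, and the libraries at 6 dpg held only 28 to 41 reads. The mean of EPF2 fell 2.72-fold, from 5.04 ± 0.472 to 1.86 ± 0.336 CPM (log2 fold change -1.44, SE 0.23, 95% interval -1.98 to -0.91, adjusted p = 0.000919). Both calls held under every alternative run.

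STOMAGEN (EPFL9, AT4G12970, chromosome 4, 7586143 to 7586849, minus strand), the peptide that promotes stomata, did not follow them. It was at 15.4 and 15 CPM at 2 dpg and at 16.5 and 12.1 CPM at 6 dpg, with the older libraries on either side of the younger ones. The means were 15.2 ± 0.265 and 14.3 ± 3.14 CPM (log2 fold change -0.08, SE 0.16, 95% interval -0.46 to 0.29, adjusted p = 0.681). Its sign turned with offsets adjusted for gene length (0.27, adjusted p = 0.151), with ribosomal scaling (0.21, adjusted p = 0.528) and without 6 dpg replicate 2 (0.12, adjusted p = 0.645).

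SDD1 (SBT1.2, AT1G04110, chromosome 1, 1061457 to 1063784, minus strand), a subtilisin-like protease that restricts stomatal number, was at 17.8 and 14.7 CPM at 2 dpg and at 2.37 and 3.02 CPM at 6 dpg. Every younger library was several times above every older one. The mean fell 6.07-fold, from 16.2 ± 2.22 to 2.70 ± 0.458 CPM (log2 fold change -2.60, SE 0.19, 95% interval -3.04 to -2.16, adjusted p = 1.82e-05). Its log2 fold change had rank 217 from the lowest of the 16160 genes tested, and across alternatives the value stayed between -2.80 and -2.28.

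**Figure D2:**
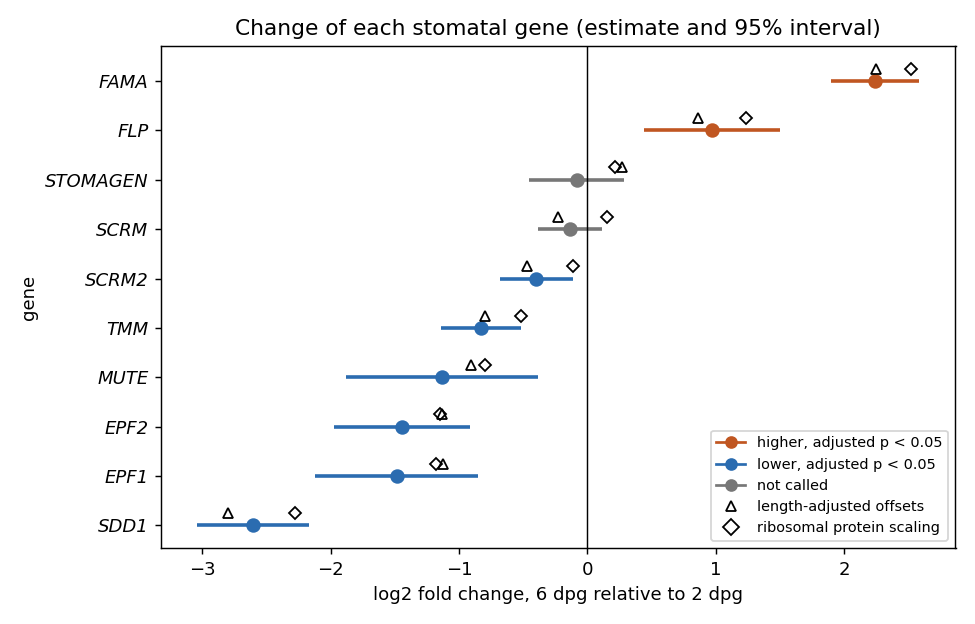
Log2 fold change (6 dpg relative to 2 dpg) of each of the 10 genes from edgeR, with its 95% interval as a bar and a line at 0; open triangles and diamonds are the values with length-adjusted offsets and with ribosomal protein scaling. FAMA (2.24) and FLP (0.97) lie to the right of 0, SDD1 (-2.60) lies farthest to the left, and the intervals of SCRM and STOMAGEN include 0.

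In the authors' deposited table, 6 of the 10 genes had an adjusted p under 0.05, against 32.8% of the 22473 genes with a p-value there. That share includes genes with too few reads for the edgeR test, which all 10 genes passed into. Of the 16160 genes in the edgeR test, 56.6% were called by edgeR, which is not the authors' test. The share of those 16160 genes under 0.05 by the authors' values was not computed. The authors' deposited table gave MUTE an adjusted p of 0.0543 and SCRM2 one of 0.0901, so it did not call those 2 genes. For FAMA and SDD1 the authors' deposited table gave 2.84e-27 and 3.24e-18.

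Levels of different genes were compared in FPKM, the authors' values scaled by gene length and library total. SCRM was highest of the 10 at both ages, at 43.9 ± 2.27 FPKM at 2 dpg and 44.9 ± 0.141 FPKM at 6 dpg, followed by STOMAGEN at 31.1 ± 0.571 and 32.9 ± 7.02 FPKM. At 2 dpg TMM (19.5 ± 0.735) and SCRM2 (17.1 ± 2.41) came next in FPKM, then EPF1 (8.97 ± 0.814) and EPF2 (7.83 ± 1.01), whose libraries overlapped. SDD1 (6.56 ± 0.665) and FAMA (3.83 ± 0.825) followed, and MUTE (2.35 ± 0.489) and FLP (2.32 ± 0.884 FPKM) overlapped at the bottom. At 6 dpg FAMA was at rank 3 in place of 8, at 20.2 ± 0.827 FPKM, above SCRM2 (14.5 ± 0.0852) and TMM (12.4 ± 1.76). FLP came next in FPKM (5.04 ± 0.412), then EPF1 (3.65 ± 1.31) and EPF2 (3.25 ± 0.607), which again overlapped. MUTE (1.23 ± 0.229) and SDD1 (1.23 ± 0.216 FPKM) overlapped in the last places, SDD1 having been at rank 7 at 2 dpg. Neighbours in these orders that are not said to overlap did not. The FPKM of SCRM and FLP imply lengths of 1946 and 2048 bases, below the 2046 and 2091 bases of the table's length column.

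**Figure D3:**
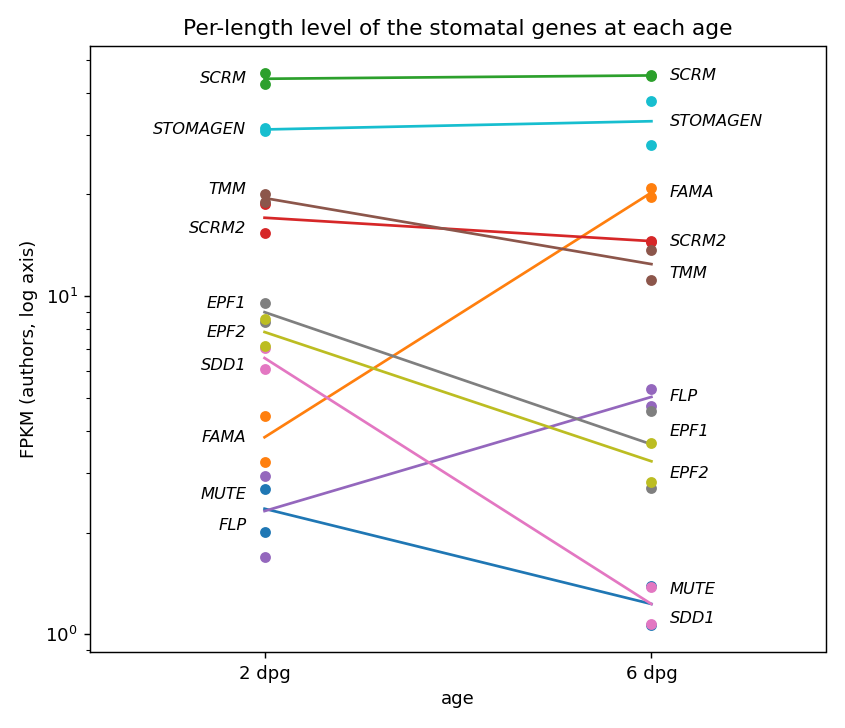
The authors' FPKM of the 10 genes in each library (points) at 2 and 6 dpg on a log axis, with lines joining the means of the ages. FAMA goes from 3.83 to 20.2 FPKM and crosses several other genes, while SCRM stays near 44 FPKM.

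Ratios within a library do not depend on how libraries are scaled. FAMA over MUTE, in FPKM, was 1.2 and 2.2 at 2 dpg and 18.4 and 15 at 6 dpg. The means were 1.70 ± 0.704 and 16.7 ± 2.43, and the geometric means differed 10.2-fold. FAMA over its partner SCRM was 0.0766 and 0.0969 at 2 dpg and 0.437 and 0.465 at 6 dpg. MUTE over SCRM went the other way, at 0.0638 and 0.0441 against 0.0237 and 0.0311. The later regulator was thus higher relative to the earlier one in both older libraries.

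STOMAGEN over EPF1 was 3.66 and 3.30 at 2 dpg and 13.9 and 6.10 at 6 dpg. STOMAGEN over EPF2 was 4.31 and 3.69 against 13.4 and 7.59. The promoting peptide was thus higher relative to each inhibitory peptide in both older libraries, which differed widely from each other. EPF1 over EPF2 was 1.2 and 1.1 at 2 dpg and 0.96 and 1.2 at 6 dpg, with overlapping ages (exact permutation test, two-sided, p = 1). SCRM over SCRM2 was 2.76 and 2.43 against 3.11 and 3.07, and TMM over SCRM was 0.473 and 0.417 against 0.249 and 0.305. For each of the other 7 ratios the ages did not overlap, and the exact two-sided permutation p was 0.333, the smallest that 2 against 2 libraries can give.

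**Figure D4:**
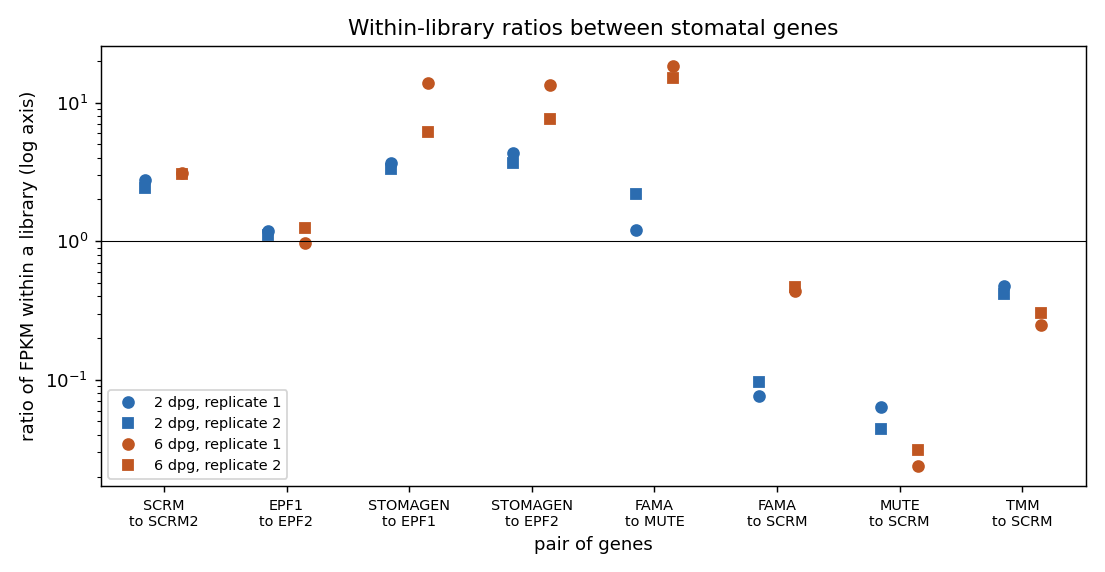
Ratios of the authors' FPKM between pairs of the 10 genes in each library (points) at 2 and 6 dpg, on a log axis. FAMA over MUTE goes from 1.2 and 2.2 to 18.4 and 15, and EPF1 over EPF2 is the pair whose points overlap between the ages.

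The other genes of the pathway, in 4 lists, did not move as one. Of 39 loci listed, 35 were in the table and 29 were tested, of which 4 were called higher and 14 lower. Over all genes tested the shares were 28.3% higher and 28.4% lower. These shares stand beside this count and those of each list below. The median log2 fold change of the 29 was -0.24, and 0.04 with ribosomal scaling, under which 5 were higher and 2 lower. The count of lower genes was 8 with DESeq2, 4 without 6 dpg replicate 1, 7 without 6 dpg replicate 2 and 9 without 2 dpg replicate 2. The count of higher genes was 2 without 6 dpg replicate 2. Of 6 tested receptors and co-receptors, 1 was higher and 3 lower. ERECTA, the receptor kinase of EPF peptides, was at 58.3 ± 0.562 and 42.9 ± 1.07 CPM (log2 fold change -0.44, adjusted p = 0.0093). ERL2, a member of its family, changed by -0.41 (adjusted p = 0.0379) and the co-receptor SERK1 by -0.70 (adjusted p = 0.00324). All 3 calls were lost with ribosomal scaling, and that of ERL2 also with DESeq2 (adjusted p = 0.105). That of ERECTA was also lost without 6 dpg replicate 1 (-0.41, adjusted p = 0.116) or 2 (-0.46, adjusted p = 0.0798), and that of ERL2 without 2 dpg replicate 2 (-0.38, adjusted p = 0.0668) or 6 dpg replicate 1 (-0.26, adjusted p = 0.326). The co-receptor SERK4 rose from 10.5 ± 0.522 to 19.1 ± 1.73 CPM (0.87, adjusted p = 0.000762). Of 3 tested EPF-like peptides, EPFL6, also called CHALLAH, fell from 2.82 ± 0.278 to 1.28 ± 0.284 CPM (-1.14, adjusted p = 0.00815), a call lost without 6 dpg replicate 1 (-0.92, adjusted p = 0.0569) and with ribosomal scaling. The other 2 missed the threshold.

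The MAP kinase cascade carries the receptor signal to the transcription factors. Of its 6 tested genes 2 were higher and 2 lower, with a median log2 fold change of 0.21. MPK3 rose from 22.0 ± 0.405 to 43.5 ± 0.401 CPM (0.98, adjusted p = 0.000162) in every alternative run. MKK9 was called higher (0.56, adjusted p = 0.025), and MKK4 (-0.44, adjusted p = 0.024) and MKK5 (-0.35, adjusted p = 0.043) lower. Without 6 dpg replicate 2 none of these 3 was called, at 0.38, -0.53 and -0.30 (adjusted p = 0.187, 0.0526 and 0.248). Without 2 dpg replicate 2, MKK9 (0.42, adjusted p = 0.0859) and MKK5 (-0.25, adjusted p = 0.102) were not called. MKK4 was not called without 2 dpg replicate 1 (-0.35, adjusted p = 0.0808), and without 6 dpg replicate 1 neither MKK4 (-0.35, adjusted p = 0.20) nor MKK5 (-0.40, adjusted p = 0.13) was. With DESeq2 neither MKK4 nor MKK5 was called (adjusted p = 0.0745 and 0.103), nor with ribosomal scaling (-0.13 and -0.07, adjusted p = 0.710 and 0.851). MKK5 was also not called with a replicate block in the model (adjusted p = 0.0568) or with length-adjusted offsets (adjusted p = 0.0502). The cascade's upstream kinase YDA was at 32.9 ± 2.06 and 36.4 ± 2.45 CPM (0.14, adjusted p = 0.336). MPK6 was at 63.8 ± 6.26 and 76.9 ± 1.28 CPM (0.27, adjusted p = 0.085). With ribosomal scaling MPK6 was called higher (0.58, adjusted p = 0.0276). Its value was 0.38 without 2 dpg replicate 1 and 0.17 without 2 dpg replicate 2.

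Of 14 tested polarity, cell division and other factors 1 was higher and 8 lower, with a median log2 fold change of -0.40. The rise was in BIN2, a GSK3-like kinase of brassinosteroid signalling, from 221 ± 7.18 to 290 ± 7.69 CPM (0.39, adjusted p = 0.0159), of whose span 25.9% is overlapped by another gene, and the call was lost without 6 dpg replicate 1 (0.37, adjusted p = 0.166) or 2 (0.42, adjusted p = 0.108). SMR4, a cyclin-dependent kinase inhibitor of the lineage, fell from 1.24 ± 0.332 to 0.331 ± 0.179 CPM (-1.86, adjusted p = 0.00893). That call was lost without 2 dpg replicate 1 (-1.54) or 6 dpg replicate 2 (-1.43). Only 36 and 20 reads at 2 dpg and 11 and 4 at 6 dpg lie behind it. The alternative filter, at a mean normalized count of 20, removed SMR4. CDKB1;1, a kinase of stomatal precursor divisions, fell from 7.76 ± 0.734 to 3.13 ± 0.424 CPM (-1.32, adjusted p = 0.00058). CYCD5;1, a D-type cyclin, fell from 6.14 ± 0.694 to 3.82 ± 0.102 CPM (-0.68, adjusted p = 0.0142). That call was lost with DESeq2 (adjusted p = 0.0542), with ribosomal scaling (-0.39, adjusted p = 0.318) and without 2 dpg replicate 2 (-0.57) or 6 dpg replicate 1 (-0.65).

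Genes used by mature guard cells were mostly higher at 6 dpg. Of 19 listed, 14 were in the table and all of these were tested, while the other 5 were not analysed here. Called higher were 8 and lower 2, with a median log2 fold change of 0.82, against 28.3% higher and 28.4% lower over all genes tested. GASA9, whose promoter is used to drive expression in guard cells, rose 6.92-fold, from 12.3 ± 0.721 to 85.0 ± 0.847 CPM (log2 fold change 2.79, SE 0.13, adjusted p = 3.19e-06). SLAC1, the anion channel of stomatal closure, rose 6.48-fold from a low level, 0.451 ± 0.00122 to 2.96 ± 0.367 CPM (2.70, SE 0.32, adjusted p = 0.000181). Only 11 and 9 reads lie behind its 2 dpg level, so that SD understates counting error. The gene AT1G12470 overlaps 6.15% of the SLAC1 locus. CHX20, a cation exchanger of guard cells, rose 6.23-fold, from 5.33 ± 0.704 to 33.1 ± 4.12 CPM (2.64, SE 0.16, adjusted p = 8.35e-06). FAMA, for comparison, changed by 2.24. The other 5 that rose, named after their values had been seen, were BLUS1, HT1, ALMT12, MYB60 and AHA1, with log2 fold changes of 2.05, 1.98, 1.15, 1.12 and 0.52. The call of AHA1, a proton pump used in many cell types, was lost with length-adjusted offsets (0.10, adjusted p = 0.613) and without 6 dpg replicate 2 (0.39, adjusted p = 0.173). MYB61 (-1.2, adjusted p = 0.00748), which also acts outside guard cells, and AT2G16630 (-0.69, adjusted p = 0.00744) fell, the latter not with ribosomal scaling (-0.36, adjusted p = 0.256). The summed level of the list was 1196 to 1275 CPM at 2 dpg and 1639 to 1797 CPM at 6 dpg, and AHA1 made up most of it, with 741 ± 58.7 CPM at 2 dpg and 1061 ± 136 CPM at 6 dpg. The kinase OST1 (0.11, adjusted p = 0.551) and the potassium channel KAT2 (0.38, adjusted p = 0.161) missed the threshold, though KAT2 was called higher without 2 dpg replicate 2 (0.65, adjusted p = 0.0308).

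Markers of other cell types moved between the ages as well. Of all genes tested, 28.3% were called higher and 28.4% lower. Dividing cell genes fell, 8 of 8 (median log2 fold change -1.29), with a summed level of 107 to 111 CPM at 2 dpg and 42.4 to 46.1 CPM at 6 dpg. The mitotic kinase AUR1 changed by -1.87, CYCB1;3 by -1.51 and CDC20.1 by -1.47. CDKB1;1 is in this list too. The cyclin CYCB1;1 (-0.62, adjusted p = 0.0319), named after its value had been seen, lost its call without 2 dpg replicate 1 (-0.48, adjusted p = 0.164), without 6 dpg replicate 1 (-0.58, adjusted p = 0.127) or 2 (-0.65, adjusted p = 0.081), with DESeq2 (adjusted p = 0.13) and with ribosomal scaling (-0.30, adjusted p = 0.484). Root genes fell in 5 of 7 tested (median -2.05), with summed levels of 218 to 260 and 94.6 to 101 CPM. They were CASP2 (-2.18), CASP1 (-2.13), RHD6 (-2.05), EXPA7 (-2.05) and SHR (-0.58). SHR lost its call with ribosomal scaling (-0.27, adjusted p = 0.391). Of 7 mesophyll genes GLDP1 (0.82) and SBPASE (0.45) rose and LHCB6 (-1.22) and CAB1 (-1.2) fell (median -0.28), while their sum went from 55041 to 59694 CPM to 35663 to 36537 CPM. Of 8 genes of the epidermis (L1 layer), from which stomata form, PDF1, LTP1 and FDH fell and 5 missed the threshold (median -0.19), with sums of 2206 to 2566 and 1402 to 1519 CPM. The call of SBPASE was lost without 6 dpg replicate 1 (0.38, adjusted p = 0.184) or 2 (0.51, adjusted p = 0.076). With ribosomal scaling the medians were -0.97, -1.72, 0.00 and 0.10 for these 4 lists, so the epidermal list turned sign. With length-adjusted offsets the epidermal median was -0.56, and ATML1, PDF2, HDG2 and ABCG12 were then also called lower. Single genes carried much of the sums: the chlorophyll-binding protein CAB1 was at 27034 ± 3102 CPM at 2 dpg and 11736 ± 461 CPM at 6 dpg, and PDF1 and LTP1 together made up most of the epidermal difference. No marker listed had a level of 0 in all 4 libraries. The part of these markers in the changes of the 10 stomatal genes was not tested.

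**Figure D5:**
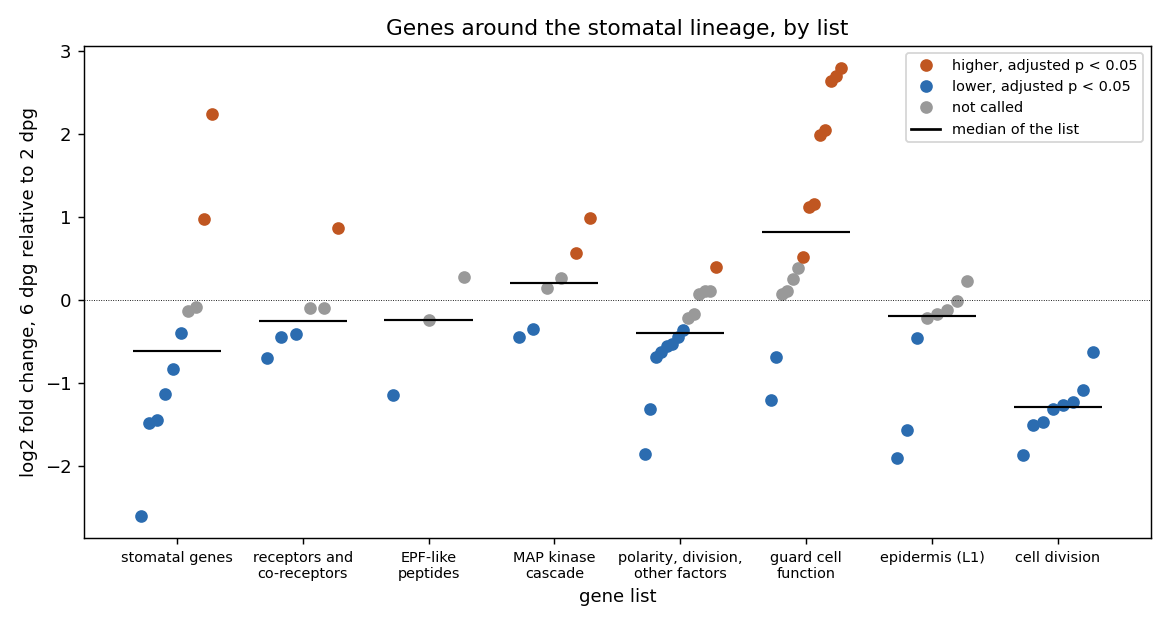
Log2 fold change (6 dpg relative to 2 dpg) of every tested gene in each list, one point per gene coloured by its call, with the median of each list as a line. The guard cell list (median 0.82) lies mostly above 0, and all 8 dividing cell genes lie below.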

How the data were processed

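Messenger RNA was sequenced from 4 libraries of whole seedlings, made from total RNA with the NEBNext Ultra RNA kit, per the labels' protocols; the kit does not mark strand. TopHat2 2.0.12, Bowtie2 2.2.3, HTSeq 0.6.1, DESeq 1.18.0 and CASAVA 1.8 served as tools, per the submitters' processing notes, which give no roles. The genome build is not given in the sources used here. Rows reach position 3070933 of chromosome 5, and genes beyond were not analysed here.

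Read counts per gene are raw values of the deposited table, per the file headers. FPKM are the authors' values from the same deposited table, used to set genes side by side and to recover library totals. The authors' adjusted p-values per gene are quoted as deposited. Library totals recovered from count, FPKM and length were 26570983, 20587872, 22745278 and 18330153 (2 dpg replicates 1 and 2, 6 dpg replicates 1 and 2), and the table holds 79.9 to 81.0% of them. A count of 3 then equals 0.113 to 0.164 CPM. Counting error is the only error that such a floor covers.

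The test was edgeR 4.0.16's quasi-likelihood test (R 4.3.3) with TMM factors, filterByExpr at a minimum of 10 reads, and a model with age alone. The filter left 16160 genes, over which p was adjusted, and the biological coefficient of variation was 11.0%. Replicates were not copies of each other: chi-square per degree of freedom was 14.4 (2 dpg) and 4.88 (6 dpg). DESeq2 1.42.0 was an alternative. Gene lists and members were chosen with earlier results of these data known. Named were all 10 members, in each other list all called genes if 6 or fewer and otherwise the 3 largest rises and falls, and the partners ERECTA, YDA, MPK3, MPK6 and MYB88. Upstream sequences were read by locus from RefSeq (TAIR10.1), which held all 10 members.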

Additional observations from a re-analysis of the deposited data

How the results depend on the processing

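Across 12 alternatives, 108 of 120 member comparisons kept direction and side of the threshold, 8 lost the call and 4 turned sign. The ribosomal protein genes had a median log2 fold change of -0.35 in the main fit (161 tested), and scaling on them raises the values of other genes. The SE of each of the 10 genes was also larger with that scaling, as for TMM (0.25 in place of 0.14). Scaling on 171 ribosomal protein genes moved the median of all genes from 0.00 to 0.30 (log2), and that of the 10 genes from -0.61 to -0.31. It left 3 of the 10 genes lower in place of 6 (2 higher in both), 2136 of all genes lower in place of 4585 (5351 higher in place of 4568), 2 of the other pathway genes lower in place of 14 (5 higher in place of 4), and 1 guard cell gene lower in place of 2 (9 higher in place of 8). SCRM turned to 0.16 under it, and STOMAGEN to 0.21; STOMAGEN was 0.27 with length-adjusted offsets and -0.33 to 0.12 without 1 library, the highest value without 6 dpg replicate 2. DESeq2 called 3851 genes higher and 3861 lower, and 8 other pathway genes lower.

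Without 1 library, the 10 genes gave 2 to 2 higher and 4 to 6 lower, all genes 3470 to 4748 higher and 3474 to 4749 lower, other pathway genes 2 to 5 higher and 4 to 12 lower, and guard cell genes 7 to 10 higher and 2 to 2 lower. The lowest pathway count, 4 lower, came without 6 dpg replicate 1, and 9 and 7 came without 2 dpg replicate 2 and 6 dpg replicate 2; the lowest count higher, 2, came without 6 dpg replicate 2. A lone library of an age is then assumed to vary like the other age. Differences between replicates 1 and 2 were almost uncorrelated between the ages (correlation -0.04 over 15089 genes). This value cannot tell whether same-numbered libraries were handled together. With a replicate block, 2 of the 10 genes were higher and 6 lower, of all genes 4555 higher and 4544 lower, of other pathway genes 4 and 13, and of guard cell genes 8 and 2.

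MUTE, EPF1 and EPF2 rest on 20 to 115 reads per library, so counting error limits their precision.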

Other observations

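Of 7 trichome genes in the table, 4 were tested, of which 1 was called higher and 2 lower, in a comparison in which 56.6% of all genes were called. The fourth, CPC, a relative of ETC1, missed the threshold (log2 fold change -0.38, adjusted p = 0.204). ETC1, a small MYB protein that inhibits trichome fate, was at 3.89 and 3.77 CPM at 2 dpg and at 0.458 and 0.307 CPM at 6 dpg. Its mean fell from 3.83 ± 0.0864 to 0.382 ± 0.107 CPM (log2 fold change -3.28, edgeR adjusted p = 6.46e-05). Only 11 and 6 reads lie behind its 6 dpg level. GL2, a homeodomain protein of trichomes and of root cells without hairs, rose from 7.24 ± 0.712 to 11.6 ± 1.2 CPM (0.67, adjusted p = 0.00685). SIM, a cell cycle inhibitor of trichomes, fell from 58.5 ± 0.729 to 34.8 ± 6.25 CPM (-0.75, adjusted p = 0.00214). The call of GL2 was lost without 6 dpg replicate 2 (0.57, adjusted p = 0.0509) and with length-adjusted offsets, and that of SIM with ribosomal scaling (-0.45, adjusted p = 0.109).

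In the epidermal list, PDF1, a protein of the outer cell layer, fell from 405 ± 43.0 to 109 ± 3.28 CPM (-1.90, adjusted p = 1.24e-05), and the lipid transfer protein LTP1 fell from 796 ± 147 to 269 ± 10.8 CPM (-1.57, adjusted p = 5.71e-05). FDH, an enzyme of the cuticle, fell from 473 ± 40.5 to 345 ± 29.1 CPM (-0.46, adjusted p = 0.0136). That call was lost with ribosomal scaling (-0.15, adjusted p = 0.551) and without 6 dpg replicate 1 (-0.37) or 2 (-0.54). The transcription factors that specify the layer missed the threshold: ATML1 was at 94.3 ± 5.77 and 83.6 ± 2.62 CPM (-0.17, adjusted p = 0.224) and HDG2 at 17.7 ± 0.190 and 17.6 ± 0.689 CPM (-0.01, adjusted p = 0.964). With length-adjusted offsets both were called lower, ATML1 at -0.54 (adjusted p = 0.00216) and HDG2 at -0.34 (adjusted p = 0.035). ATML1 and HDG2 were picked from the list after their values had been seen.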
